A study of Mus musculus with 11 samples.

Results

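The activity-dependent immediate early genes were described in the hippocampus of young adult F1 mice whose mothers had received 1 of 2 diets before mating. They were chosen by name, as 38 genes listed as immediate early or early response genes of neuronal activity or as limiting that response. All 38 were found among the 38293 genes of the count tables. RNA of the whole hippocampus came from 6 CD mice (3 males, 3 females), the offspring of dams on a control diet with 2.3 mg folic acid per kg, and from 5 FD mice (2 males, 3 females), the offspring of dams on a diet with 40 mg folic acid per kg for 6 weeks before mating. All mice were wildtype hybrids of the 129S6/SvEv and C57BL/6J strains, 14 weeks of age, and all animals were on the control diet from mating on. The labels do not say which litter each mouse came from, and neither the labels nor the methods say what the sequenced mice had done in the hours before death. The p-values therefore measure the spread between these mice, some of which may be littermates.

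When a neuron fires, calcium enters through NMDA receptors and voltage-gated channels and activates calmodulin-dependent kinases and the ERK kinase cascade. These kinases phosphorylate transcription factors that already sit on the promoters of immediate early genes, above all CREB, which binds the cAMP response element (CRE), and SRF, which binds the CArG box. Transcription then starts without any new protein. The first products are transcription factors of the AP-1, EGR and NR4A families and Npas4, which switch on later genes, together with effectors that act at the synapse, such as Arc, and phosphatases that end the kinase signal, such as Dusp1. Many of the messengers, though not all of those listed, decay quickly, so that their level at death follows recent activity, handling and stress. In whole tissue, fewer active cells and less RNA per cell cannot be told apart.

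The counts assigned to genes ranged from 11737554 to 44447006 per mouse, with a median of 21148672, so that 3 counts corresponded to 0.0675 to 0.256 CPM, the counts scaled to the size of the library. All 38 genes had at least 10 counts over the 11 mice and entered the tests, which covered 20589 genes. Maff alone had a mean below 1 CPM (0.753). The levels below are CPM after TMM scaling, an edgeR normalization for library composition. Slc17a7, the vesicular glutamate transporter of hippocampal pyramidal cells, lay between 1233 and 1605 CPM and Prox1, a marker of dentate granule cells, between 128 and 163 CPM in all 11 mice. Otx2, which is made by the choroid plexus and not by hippocampus, lay between 0.0853 and 1.06 CPM. Of other choroid plexus markers, Prlr lay between 3.48 and 4.80 CPM and Ttr between 3.35 and 54.7 CPM. The mean level of a gene per kb of exon, the scale on which genes can be set beside each other, was highest for Arc (44.4 CPM per kb), Egr1 (30.3) and Jun (26.7) and lowest for Maff (0.290), Inhba (0.503) and Atf3 (0.534).

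The promoters of 30 of the 38 genes were in the RefSeq promoter table (GRCm38.p6), which lists 1 or more transcription starts per gene. The 250 bases upstream of each start were searched on both strands. Sites farther upstream were not searched, and Arc, Egr1 and Egr3 were among the genes absent from the table. The CRE core TGACG was present upstream of at least 1 start in 20 of the 30 genes, against 19.8% of all 27025 genes of the table. The full CRE, TGACGTCA, which contains the core on both strands, was found in 4 of the 30 (Btg2, Dusp1, Arl4d and Maff), against 1.77% of all genes, and the CArG box in 2 (Egr2 and Dusp5), against 1.62%. The EGR site GCGNGGGCG was found in 9 of the 30, against 5.33%. The AP-1 site TGANTCA was found in 1 (Csrnp1), against 7.82%, and the NR4A site AAAGGTCA in 0, against 1.55%. These windows were also richer in the bases of which the CRE core and the EGR site are made, with a median G+C content of 63.8% and a median of 18 CG dinucleotides, against 52.4% and 6 over all windows, and the part of this in the shares was not tested. The upstream sequences of 6 genes on which the results below turn are given here from RefSeq, 5′ to 3′ on the strand of the gene, with each CRE core or CRE in capitals (CGTCA is the core on the other strand). Bases that GENCODE M21 places in an exon of the same gene were left out, which shortened only that of Dusp1.
Fos (AP-1, chr12:85473640-85473889, plus strand): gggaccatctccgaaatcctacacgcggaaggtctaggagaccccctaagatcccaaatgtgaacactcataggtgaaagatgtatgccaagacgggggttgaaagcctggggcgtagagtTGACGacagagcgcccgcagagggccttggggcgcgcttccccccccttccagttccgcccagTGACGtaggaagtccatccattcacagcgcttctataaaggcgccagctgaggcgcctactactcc
Junb (AP-1, chr8:84978749-84978998, minus strand): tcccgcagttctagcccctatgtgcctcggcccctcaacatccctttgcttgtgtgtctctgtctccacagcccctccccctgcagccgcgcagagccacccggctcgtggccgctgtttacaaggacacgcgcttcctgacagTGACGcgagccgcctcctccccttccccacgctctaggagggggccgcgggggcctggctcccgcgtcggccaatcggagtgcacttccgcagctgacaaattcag
Dusp1 (kinase feedback, chr17:26508520-26508722, minus strand): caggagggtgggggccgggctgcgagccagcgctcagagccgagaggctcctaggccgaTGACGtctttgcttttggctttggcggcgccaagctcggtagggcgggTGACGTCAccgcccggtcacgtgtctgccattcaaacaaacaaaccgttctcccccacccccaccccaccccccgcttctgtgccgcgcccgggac
Btg2 (growth arrest, chr1:134079156-134079405, minus strand): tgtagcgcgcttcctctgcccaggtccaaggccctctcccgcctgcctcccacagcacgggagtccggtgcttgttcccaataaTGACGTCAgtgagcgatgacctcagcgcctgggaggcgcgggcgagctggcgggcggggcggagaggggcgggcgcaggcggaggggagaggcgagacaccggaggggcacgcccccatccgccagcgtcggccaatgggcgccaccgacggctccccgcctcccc
Csrnp1 (transcription factor, start farthest upstream, chr9:119984743-119984992, minus strand): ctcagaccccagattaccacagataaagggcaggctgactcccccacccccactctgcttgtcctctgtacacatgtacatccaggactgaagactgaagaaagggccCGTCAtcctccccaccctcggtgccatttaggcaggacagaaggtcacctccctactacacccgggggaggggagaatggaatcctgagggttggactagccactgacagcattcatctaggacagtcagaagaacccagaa
Homer1 (synaptic scaffold, chr13:93303507-93303756, plus strand): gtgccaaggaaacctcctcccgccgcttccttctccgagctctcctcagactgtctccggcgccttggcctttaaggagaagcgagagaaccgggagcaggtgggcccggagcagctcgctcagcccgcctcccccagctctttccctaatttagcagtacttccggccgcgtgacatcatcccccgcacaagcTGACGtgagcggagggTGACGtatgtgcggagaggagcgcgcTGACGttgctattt
In the windows shown, the 2 cores of Fos stand alone, as does that of Junb and that of Csrnp1, while Dusp1 holds 1 core and 1 full CRE and Btg2 1 full CRE. The windows of other Csrnp1 starts hold 1 or 2 cores. The windows shown for Dusp1 and Homer1 each lie inside the span of a longer annotated transcript but outside its exons. That of Homer1 holds 3 cores close to the start. The window of the other Homer1 start holds 0 cores.

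The levels of these genes differed widely between mice. The standard deviation (SD) of log2 CPM over the 11 mice had a median of 0.23 for 37 genes, all but Maff, against 0.13 for all 14437 genes whose mean reached 1 CPM. Of the 37, 32 lay above the median of all genes and 11 in the top 10%. Npas4, a transcription factor that neurons use to adjust their inhibitory synapses, had the largest SD (0.45), followed by Egr2 (0.41), Ier2 (0.40), Fos (0.39) and Junb (0.37). Nr4a3 and Rheb, a small GTPase upstream of mTOR, had the smallest (both 0.08). Egr2 and Ier2 had mean levels of 4.27 and 3.54 CPM.

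At the ends stood 3 mice. FD male 1 had the lowest level of 17 of the 37 genes and lay below the mean of the 11 mice for 31 of them. CD female 1 had the highest level of 15 genes and FD female 1 that of 8, and they lay above the mean for 32 and 33 genes. The median difference from the mean of the 11 mice was -0.26 in FD male 1, 0.23 in CD female 1 and 0.22 in FD female 1 on the log2 scale, and between -0.08 and 0.11 in the other mice. Mice of both diets were thus at the high end.

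**Figure D1:**
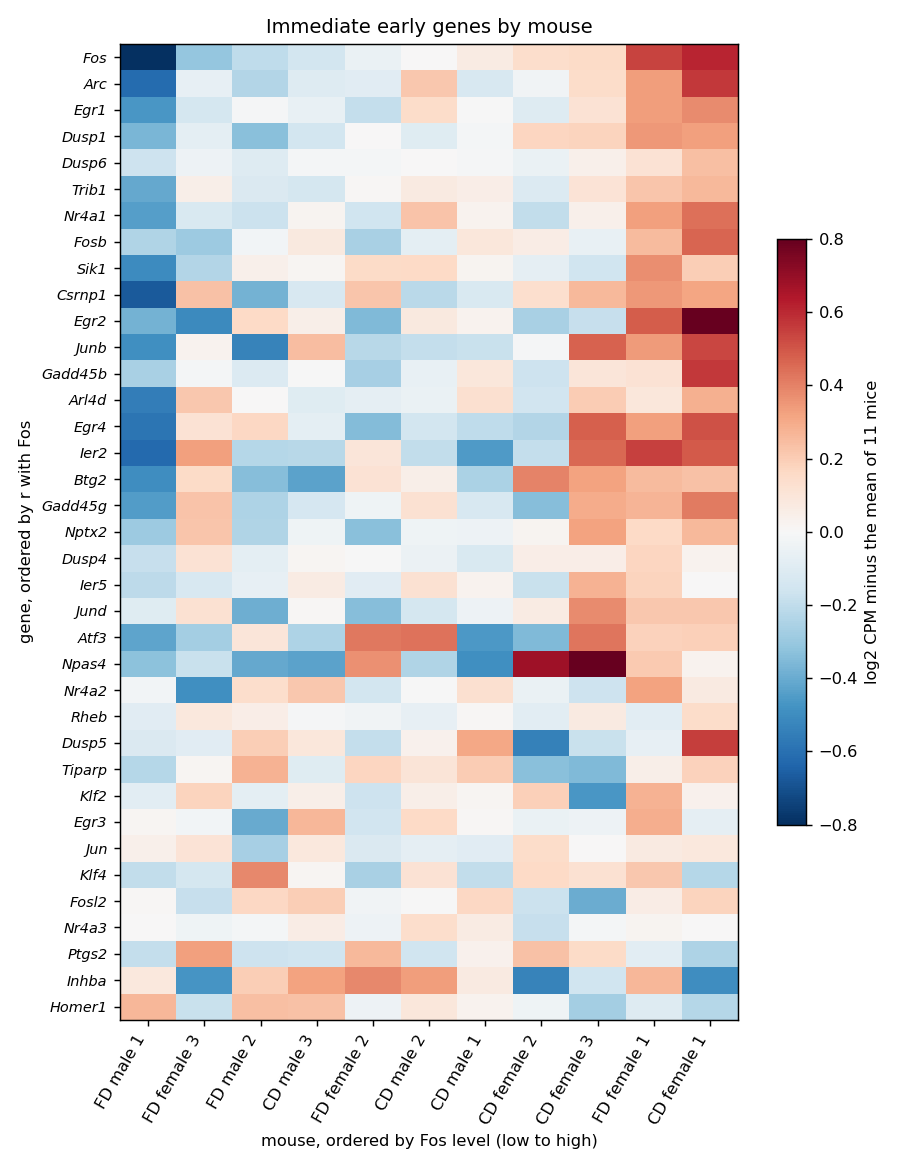
Each cell is the log2 CPM of 1 gene in 1 mouse minus the mean of that gene over the 11 mice; the 37 genes whose mean reached 1 CPM are ordered by their correlation with Fos, and the mice by their Fos level. FD male 1 is blue in nearly all of the upper part of the map, CD female 1 and FD female 1 are red there, and Homer1 at the bottom runs the other way.

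No immediate early gene passed the test between the diets without pairing of mice. Arc alone passed in pairs set by label numbers, which are not said to link mice, as given further on. In edgeR's unpaired quasi-likelihood test, 0 of the 38 genes had an adjusted p under 0.1 (Benjamini-Hochberg over all genes), a threshold that 14 genes, 0.068% of those tested, passed, and DESeq2 also called 0 of the 38. Without adjustment, 0 of the 38 had a p under 0.05, against 2.59% of all genes. The ranges of FD and CD mice overlapped for all 38, whereas 0.505% of all genes had ranges that did not. The log2 fold change of FD over CD mice was below 0 for 29 of the 38 genes, against 51.8% of all genes tested, with a median of -0.08 against -0.004 over all genes. This majority rested in part on single mice: of the 38 genes, 9 had a fold change above 0, but 17 did without FD male 1 and 14 without CD female 1.

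All 6 AP-1 genes, whose proteins pair as Fos and Jun dimers, had a log2 fold change below 0, from -0.30 for Junb to -0.01 for Fosl2. Fos, the AP-1 gene most used to mark active neurons, lay between 14.2 and 23.9 CPM in CD mice (median 16.8), and at 8.95, 13.6, 22.8, 15.1 and 12.6 CPM in FD male 1, FD male 2 and FD females 1 to 3. FD female 1 exceeded all CD mice but CD female 1, and 3 of the other 4 FD mice lay below the lowest CD mouse. The log2 fold change of Fos was -0.24 ± 0.18 (SE, adjusted p = 1.0), and it was -0.11 without FD male 1, -0.12 without CD female 1 and -0.48 without FD female 1. Junb, a partner of Fos in AP-1 dimers, lay between 19.8 and 32.8 CPM in CD mice (median 24.7), and at 16.1, 15.6, 28.6, 19.3 and 23.1 CPM in FD mice in the same order. Its log2 fold change of -0.30 ± 0.16 had the smallest p of the 38 genes (unadjusted p = 0.0829, adjusted p = 1.0 in edgeR), and it was -0.45 without FD female 1. Junb overlaps Prdx2 on the other strand, as Jun, Jund, Dusp1, Dusp5, Csrnp1 and Tiparp also overlap a gene there, and since it is not stated whether the counting used strand, reads of the overlap cannot be assigned.

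The 4 EGR genes, zinc finger factors that follow ERK signalling, and the 3 NR4A genes, orphan nuclear receptors, also all had values below 0. Egr1 lay between 125 and 175 CPM in CD mice (median 139.8), and at 97.3, 134, 169, 118 and 122 CPM in FD mice. As for Fos, 3 of the 5 FD mice lay below the lowest CD mouse, and the log2 fold change was -0.16 ± 0.11 (adjusted p = 1.0 in edgeR), or -0.07 without FD male 1, -0.09 without CD female 1 and -0.27 without FD female 1. Egr2 lay between 3.41 and 7.57 CPM in CD mice (median 4.22) and at 3.14, 4.60, 5.78, 3.20 and 2.86 CPM in FD mice. In each group 1 female stood above the rest, and its log2 fold change was -0.23 ± 0.22, or -0.01 without CD female 1 and -0.45 without FD female 1. Egr3 was closer between the groups, at 22.1 to 27.9 CPM in CD mice (median 22.9) and at 23.5, 17.5, 28.3, 20.8 and 22.8 CPM in FD mice, with a log2 fold change of -0.08 ± 0.10. Nr4a1, the NR4A gene that moved most with Fos, had a log2 fold change of -0.20 ± 0.12, and Nr4a3 one of -0.03 ± 0.05. Npas4, which responds to calcium alone and not to growth factors, lay between 5.69 and 14.0 CPM in CD mice (median 7.49) and at 6.38, 6.01, 9.27, 10.4 and 7.08 CPM in FD mice. Its log2 fold change was -0.13 ± 0.23, with the upper CD values in CD females 2 and 3.

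Among the effectors the signs were mixed. Arc, whose protein removes AMPA receptors from synapses, lay between 122 and 197 CPM in CD mice (median 138.7), and at 86.6, 113, 168, 125 and 127 CPM in FD mice. Both FD males lay below the lowest CD mouse, and FD female 1 exceeded all CD mice but CD female 1. The log2 fold change was -0.23 ± 0.14 (adjusted p = 1.0 in edgeR without pairing, 0.0663 within pairs), and it was -0.13 without CD female 1 or FD male 1 and -0.36 without FD female 1. Nptx2, a secreted pentraxin that gathers AMPA receptors, lay between 28.3 and 36.3 CPM in CD mice (median 29.0) and at 23.7, 24.6, 32.5, 23.0 and 33.9 CPM in FD mice, and its log2 fold change was -0.15 ± 0.11. Homer1 lay between 120.3 and 171 CPM in CD mice (median 145) and at 175, 172, 135, 141 and 128 CPM in FD mice, with a log2 fold change of 0.06 ± 0.10. Homer1 counts sum the short activity-induced form and the constitutive long scaffold form, which these tables do not separate. The largest positive value was that of Inhba, a subunit of activin (0.12 ± 0.19). Of the 6 kinase feedback genes 5 had values below 0, from -0.16 for Dusp5 to 0.02 for Dusp4, and Dusp1, a phosphatase of MAP kinases, lay between 16.1 and 22.5 CPM in CD mice (median 18.9) and at 13.9, 14.1, 22.8, 17.9 and 16.9 CPM in FD mice. The 6 growth arrest and other early genes ranged from -0.21 for Gadd45b to 0.09 for Ier2, and the 6 remaining transcription factors from -0.13 for Npas4 to 0.08 for Maff.

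**Figure D2:**
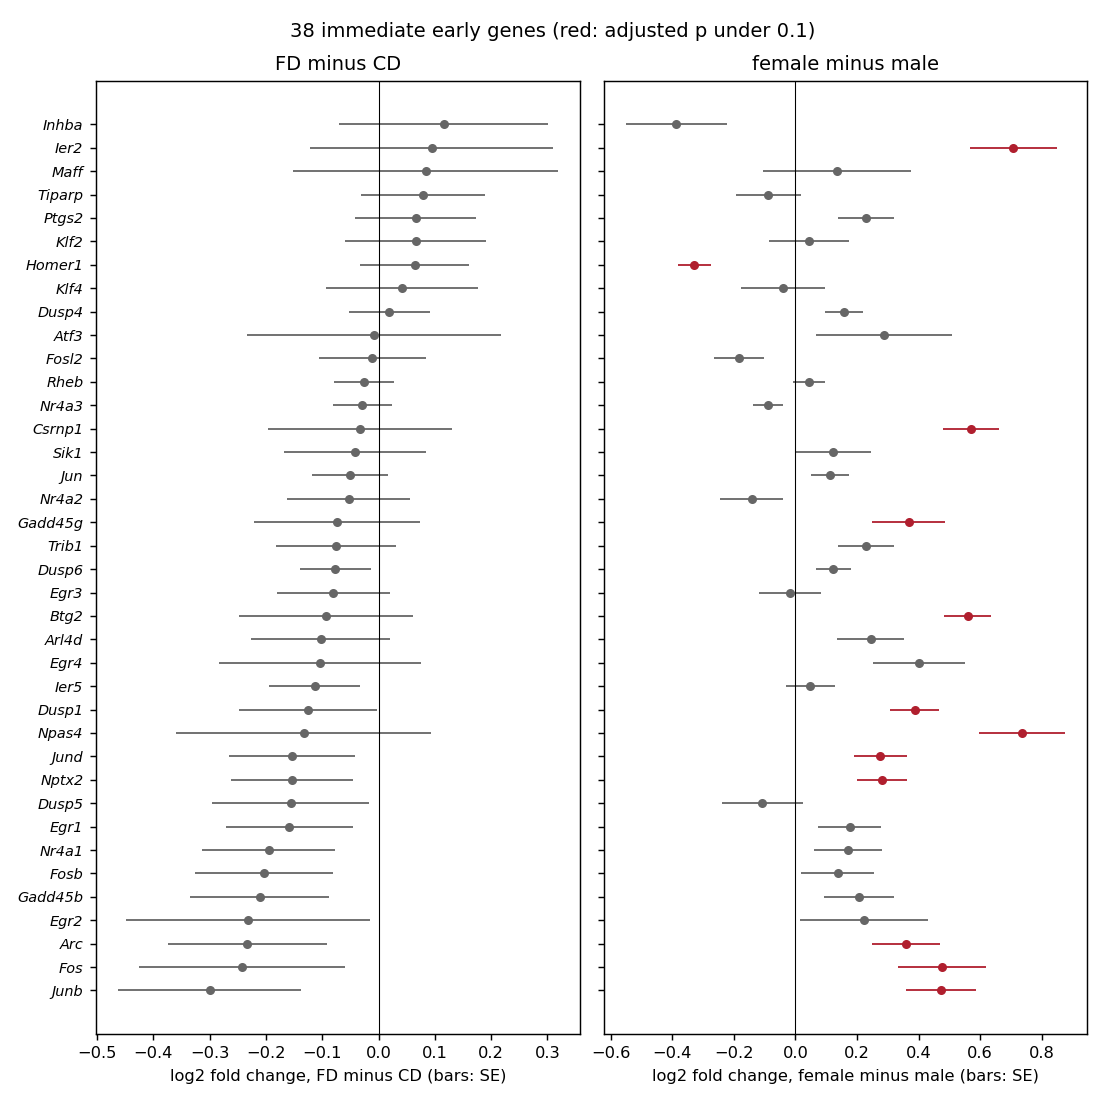
Points are log2 fold changes from edgeR and bars their SE, for FD minus CD mice on the left and females minus males on the right, with the 38 genes in the same order on both sides. No gene is red (adjusted p under 0.1) on the left, where 29 of 38 points lie below 0, while 12 are red on the right, of which Homer1 alone lies below 0.

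The labels number the mice within each sex, and 5 CD mice have an FD mouse of the same sex and number. The labels do not say that the number links these mice. They were treated as pairs because their deviations from the diet means correlated in these same data. Those of some same-sex mice of different number did so as well. Within these 5 pairs, Arc had a lower level in FD mice. Its log2 fold change was -0.29 ± 0.06 (adjusted p = 0.0663 in edgeR with the pair as a block), and the FD mouse had the lower level in 5 of 5 pairs. Arc was the 1 gene of the 38 that passed, where 23 of 20212 genes (0.114%) did. Junb came next (-0.30 ± 0.07, adjusted p = 0.119), then Fos (-0.35 ± 0.09, adjusted p = 0.325) and Egr1 (-0.20 ± 0.06, adjusted p = 0.349). Without adjustment 13 of the 38 had a p under 0.05 in this fit, against 6.76% of all genes, and 12 of these 13 had values below 0 while Homer1 was above 0 (0.12 ± 0.05, adjusted p = 0.644). Fos, Junb, Arc, Egr1, Nptx2 and Gadd45b were lower in the FD mouse of all 5 pairs, that is 6 of 38 genes against 4.17% of all genes, and 0 of 38 were lower in the CD mouse of all 5 pairs, against 4.07%. The call for Arc depended on the pairs used: with each pair left out in turn its adjusted p ranged from 0.0436 to 0.291 and its log2 fold change from -0.34 to -0.24, and the call was kept without the pair of females 1 or females 2 and lost without any of the other 3. The mice of a pair share their sex by label, and likeness from the sex and from the number cannot be fully told apart. With sex as a covariate in place of the pairs, over all 11 mice, Arc had a log2 fold change of -0.28 (adjusted p = 0.922 in edgeR). In that fit 0 of the 38 genes were called.

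**Figure D3:**
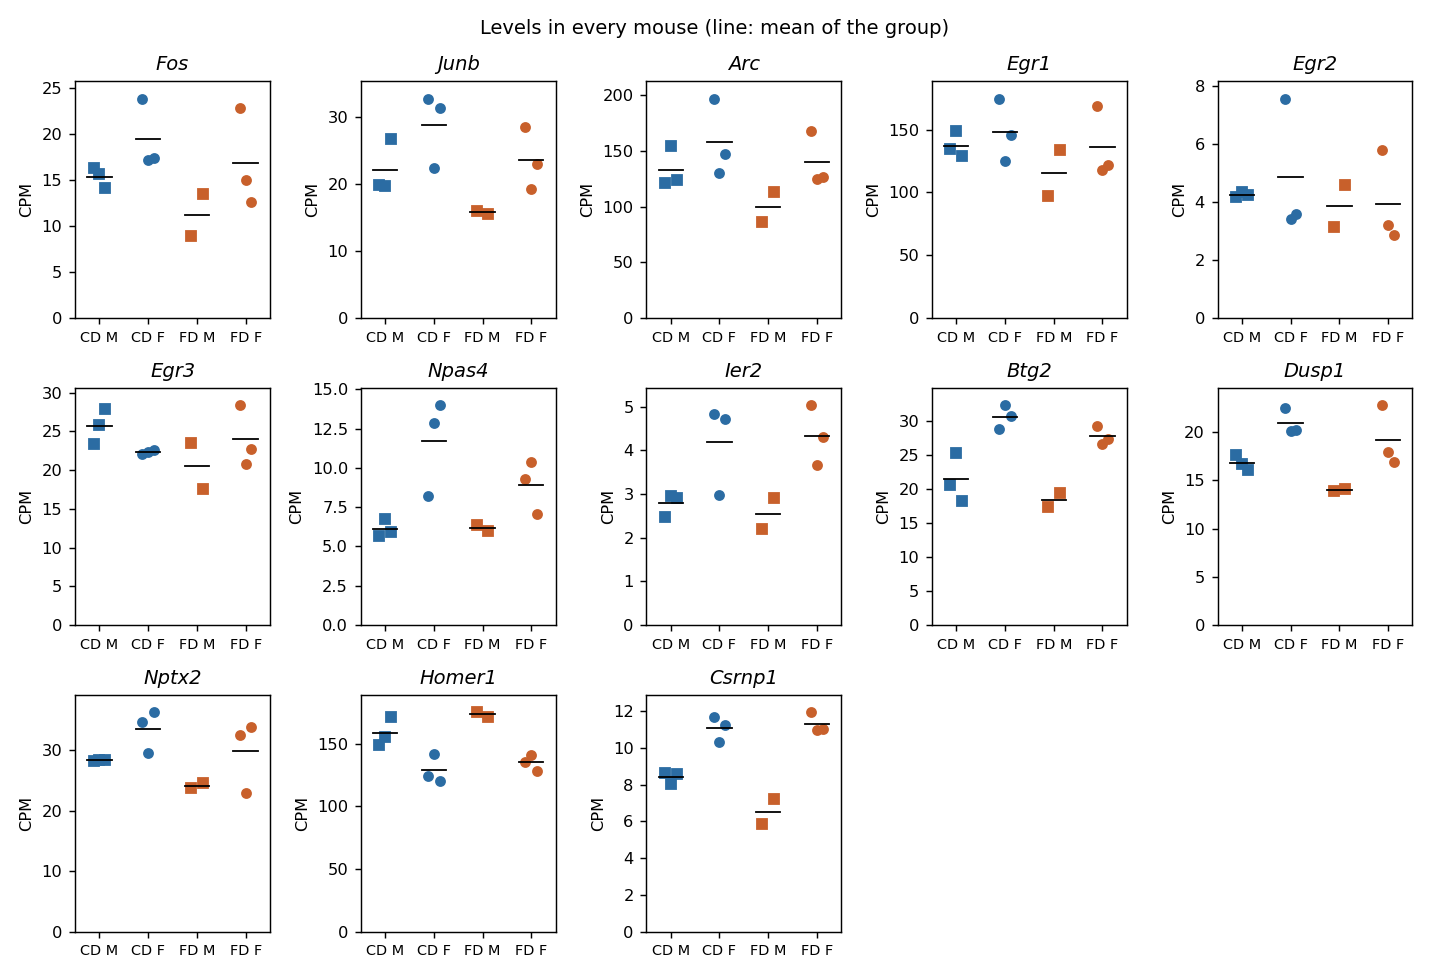
Each point is the CPM of 1 mouse, in CD males, CD females, FD males and FD females (blue CD, orange FD, squares males, circles females), and the line is the mean of that group. For Btg2, Npas4, Csrnp1, Ier2 and Homer1 the points of males and females do not overlap, whereas CD and FD points overlap for every gene shown.

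The levels of most of these genes moved together from mouse to mouse. Over all pairs of the 37 genes, the median Pearson r of log2 CPM over the 11 mice was 0.32 and 501 of 666 pairs (75.2%) were positive, against a median of 0.01 over all pairs of the 14437 genes. Fos was taken as the reference. The median r with Fos was 0.61 over the other 36 genes, against 0.07 over all 14436 genes. A positive r was found for 32 of the 36, against 55.3% of all genes. In a two-sided permutation test with 100000 resamples, 20 of the 36 had an unadjusted p under 0.05, 19 with a positive r and Homer1 with a negative one, whereas 5.88% of all genes did. With adjustment over all 14436 genes, 0 genes (0.0%) passed the threshold of 0.1 and the smallest adjusted p was 0.660.

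Arc ranked first of the 14436 genes by r with Fos, with Egr1 and Dusp1 at ranks 2 and 3. Arc had r = 0.92 and Spearman's rho = 0.80 (permutation p = 0.00015, adjusted p = 0.660), Egr1 r = 0.91 and rho = 0.79 (permutation p = 0.00021), and Dusp1 r = 0.91 and rho = 0.90 (permutation p = 6e-05). Dusp6, an ERK phosphatase at rank 5, had r = 0.90 and rho = 0.83, Trib1, a pseudokinase at rank 8, r = 0.88 and rho = 0.82, and Nr4a1, at rank 13, r = 0.86 and rho = 0.73. Dusp6 moved within narrow bounds (58.7 to 77.9 CPM, SD 0.11), and its order followed that of Fos all the same. Thus 5 of the first 10 genes and 6 of the first 20 were immediate early genes. Among the other genes with the highest r were Mmgt2, Eci1, Tor3a, Pdzd11, Mmp9, Ptn, Ecscr, Ly6g6e and Arhgap10, with r from 0.83 to 0.90, each also with an adjusted p of 0.660.

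By role, all but 1 of the 6 kinase feedback genes had an unadjusted p under 0.05 with Fos, Dusp5 being the exception (r = 0.26). Of the 4 EGR genes Egr1, Egr2 (r = 0.74) and Egr4 (r = 0.69) did and Egr3 did not (r = 0.20, rho = 0). In the AP-1 family Fosb (r = 0.81) and Junb (r = 0.73) followed Fos, whereas Jun (r = 0.17) and Fosl2 (r = 0.08) had low values, and Jun was also among the steadier genes (70.4 to 93.9 CPM). Nr4a2 (r = 0.36) and Nr4a3 (r = -0.02) had lower values than Nr4a1. Npas4 had r = 0.43 and rho = 0.50 (permutation p = 0.190, adjusted p = 0.660): its highest levels, 12.9 and 14.0 CPM, were in CD females 2 and 3, and the mice highest in Fos, CD female 1 and FD female 1, had 8.20 and 9.27 CPM. Homer1 had r = -0.64 and rho = -0.65 (permutation p = 0.0288). Ptgs2, the prostaglandin synthase of active neurons, and Inhba had r of -0.06 and -0.20. This order changed for several genes with the means of each diet and sex taken out. Nr4a2 then had r = 0.80 and Fosl2 0.69, whereas Junb had 0.40, Nptx2 0.20, Homer1 -0.20 and Npas4 -0.26. Arc (0.84), Egr1 (0.92), Dusp1 (0.88) and Fosb (0.83) stayed high, and Egr3 (0.15) and Jun (-0.35) stayed low.

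**Figure D4:**
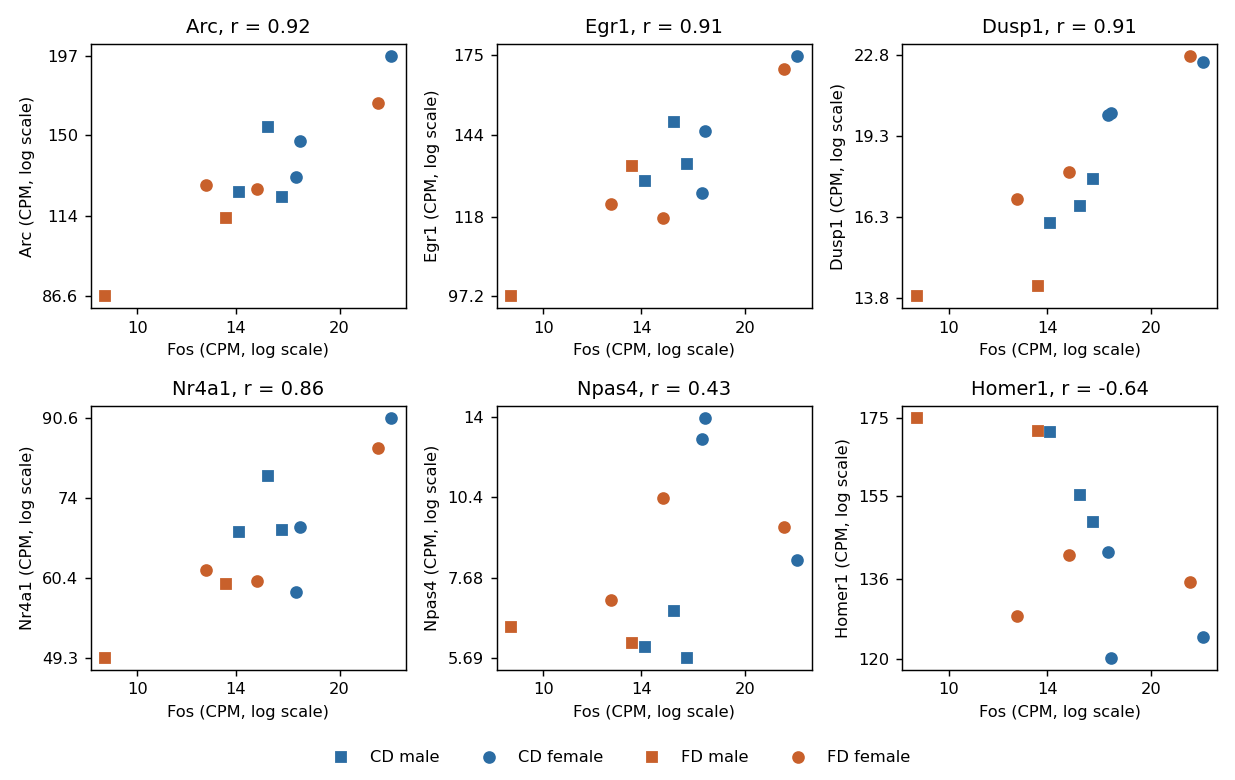
Each point is 1 of the 11 mice, with Fos on the horizontal and another gene on the vertical axis, both in CPM on log scales (blue CD, orange FD, squares males, circles females). Arc, Egr1, Dusp1 and Nr4a1 are higher in mice with more Fos, most widely at the ends set by FD male 1, FD female 1 and CD female 1, while Npas4 scatters and Homer1 is lower.

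The 2 mice farthest from the median of Fos, FD male 1 and CD female 1, were left out in a further fit, which narrows the range of Fos and lowers r by its construction. Without them the median r of the 36 genes with Fos was 0.42, against 0.01 over all genes, and 5 of the 36 had an unadjusted p under 0.05, against 2.501% of all genes. Arc then had r = 0.75, Egr1 0.76, Dusp1 0.86 and Dusp6 0.82. Without FD female 1 as well, a choice made after the values were seen, the median r was 0.14 (0.0002 over all genes), 1 of the 36 had such a p, near the 2.057% of all genes, and the median over pairs of genes was 0.09. With any single mouse left out, the median over pairs was 0.26 to 0.37. With the means of each diet and sex taken out, the median r with Fos was 0.52 (0.014 over all genes) and 14 of 36 had an unadjusted p under 0.05, against 6.2% of all genes. Fos had r = -0.59 (rho = -0.50, permutation p = 0.0532, adjusted p = 0.155 over 3 library measures) with the share of alignments that fell outside genes, which ran from 7.01% in CD female 1 to 11.03% in CD male 2, and r = -0.49 without the 2 mice farthest from the median of that share. With this share regressed out, the median r with Fos was 0.49 (-0.012 over all genes) and 11 of 36 had such a p, against 4.766% of all genes, and Arc kept r = 0.88 and Egr1 r = 0.87. The depth of the libraries had r = 0.21 with Fos (rho = 0.15, permutation p = 0.535, adjusted p = 0.535) and the share of alignments to several places r = 0.52 (rho = 0.53, permutation p = 0.104, adjusted p = 0.155); without the 2 farthest mice these were 0.44 and 0.17.

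**Figure D5:**
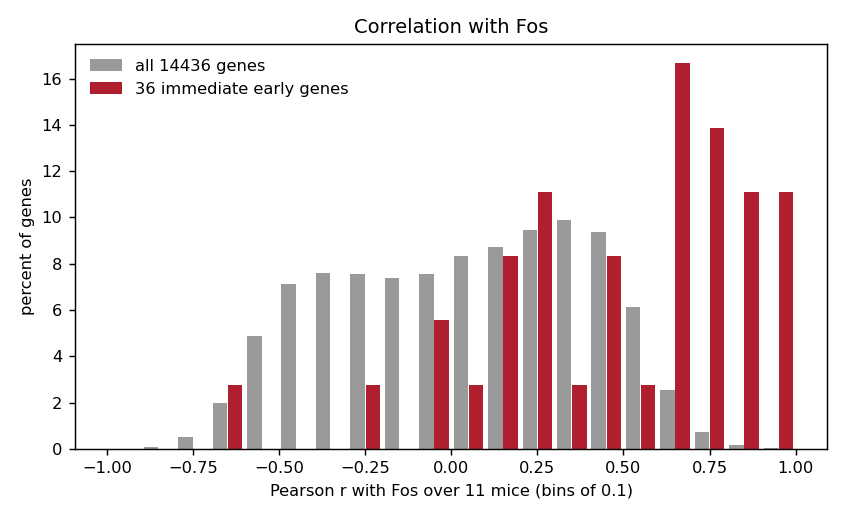
Bars give the percentage of genes in each bin of 0.1 of Pearson's r with Fos over the 11 mice, in grey for all 14436 genes whose mean reached 1 CPM and in red for the 36 immediate early genes among them. The red bars are concentrated above 0.6, where 19 of the 36 genes lie, and Homer1 is the single red bar below -0.6.

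Females had higher levels of 11 of these genes than males and a lower level of 1. In the edgeR test with diet as covariate, 12 of the 38 had an adjusted p under 0.1, against 6.11% of all genes. Those higher in females (11 of 38, against 3.03% of all genes) were Btg2, Csrnp1, Npas4, Ier2, Dusp1, Junb, Nptx2, Fos, Arc, Jund and Gadd45g, and the lower one was Homer1 (1 of 38, against 3.07%). The ranges of males and females did not overlap for 5 of the 38 (Btg2, Csrnp1, Npas4, Ier2 and Homer1), against 1.78% of all genes. The median log2 fold change of females over males was 0.17 over the 38 genes and 0.0045 over all genes tested.

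Btg2, which halts the cell cycle and stabilizes the state of differentiated neurons, had the smallest p. It lay at 20.7, 25.4 and 18.3 CPM in CD males 1 to 3, at 17.4 and 19.4 CPM in FD males 1 and 2, and between 26.7 and 32.3 CPM in the 6 females (median 29.1). Every female was above every male, and the log2 fold change was 0.56 ± 0.08 (adjusted p = 0.00312 in edgeR). Csrnp1, a nuclear protein first described as induced by axin, lay at 8.63, 8.05, 8.56, 5.86 and 7.21 CPM in the males in the same order and between 10.3 and 11.9 CPM in females (median 11.2). The females were close to each other, and the log2 fold change was 0.57 ± 0.09 (adjusted p = 0.0195 in edgeR). Npas4 lay at 5.69, 6.78, 5.94, 6.38 and 6.01 CPM in males and between 7.08 and 14.0 CPM in females (median 9.81). Its males were alike and its females spread over a wide range, with a log2 fold change of 0.74 ± 0.14 (adjusted p = 0.0489 in edgeR). Ier2, an early nuclear protein of low level, lay at 2.47, 2.97, 2.91, 2.19 and 2.90 CPM in males and between 2.99 and 5.03 CPM in females (median 4.52), so that the ranges only just failed to meet, with a log2 fold change of 0.71 ± 0.14 (adjusted p = 0.0545 in edgeR). Homer1 lay at 149, 155, 171, 175 and 172 CPM in males and between 120.3 and 142 CPM in females (median 132), with a log2 fold change of -0.33 ± 0.05 (adjusted p = 0.0195 in edgeR).

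The other 7 had overlapping ranges. Dusp1 had a log2 fold change of 0.39 ± 0.08 (adjusted p = 0.0570), with males at 17.7, 16.7, 16.1, 13.9 and 14.1 CPM and females between 16.9 and 22.8 CPM (median 20.2). Junb had one of 0.47 ± 0.11 (adjusted p = 0.0641), with males at 19.98, 19.8, 26.9, 16.1 and 15.6 CPM and females between 19.3 and 32.8 CPM (median 25.8). The 3 CD males lay within the female range of Junb and the 2 FD males below it, while for Dusp1 all males but CD male 1 lay below it. Fos had a log2 fold change of 0.48 ± 0.14 (adjusted p = 0.0903), with males at 16.4, 15.7, 14.2, 8.95 and 13.6 CPM and females between 12.6 and 23.9 CPM (median 17.3). Arc had one of 0.36 ± 0.11 (adjusted p = 0.0932), with males at 122, 155, 124, 86.6 and 113 CPM and females between 125 and 197 CPM (median 138.7). For Fos all males but FD male 1 lay within the female range, and for Arc all but CD male 2 lay below it. Nptx2 also passed (0.28 ± 0.08, adjusted p = 0.0858), with males at 28.3, 28.3, 28.4, 23.7 and 24.6 CPM and females between 23.0 and 36.3 CPM (median 33.2), as did Jund (0.28 ± 0.09, adjusted p = 0.0964) and Gadd45g (0.37 ± 0.12, adjusted p = 0.0994). Egr1 (0.18 ± 0.10, adjusted p = 0.353), Egr2 (0.22 ± 0.21, adjusted p = 0.597) and Egr3 (-0.02 ± 0.10, adjusted p = 0.945) did not pass, and neither did any NR4A gene.

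The number of these calls depended on single mice and on the library measure above. With each mouse left out in turn, between 18 and 3244 genes and between 3 and 16 of the 38 were called. The members called were 3 without CD male 1, CD male 2, CD female 3 or FD male 2, 4 without CD female 1, 5 without FD female 3, 6 without FD female 1, 7 without CD male 3 or FD male 1, 14 without FD female 2 and 16 without CD female 2. Btg2, Csrnp1 and Homer1 were called in all 11 of these fits, with adjusted p of at most 0.0240, 0.0700 and 0.0857, Npas4 in 7, Dusp1 in 6, Ier2 in 5, Junb in 4, and Fos, Arc, Jund, Nptx2 and Gadd45g in 2. The log2 fold changes kept their sign and most of their size in these fits, at 0.63 to 0.84 for Npas4, 0.31 to 0.42 for Dusp1, 0.63 to 0.80 for Ier2, 0.39 to 0.58 for Junb, 0.34 to 0.54 for Fos, 0.27 to 0.43 for Arc and 0.24 to 0.32 for Nptx2. The share of alignments outside genes lay between 7.01 and 10.53% in females and between 8.95 and 11.03% in males (exact permutation test, two-sided p = 0.0628). With this share as a second covariate, a fit added after the values were seen, 9 genes and 2 of the 38 were called, Npas4 with a log2 fold change of 1.05 ± 0.14 (adjusted p = 0.00199) and Btg2 with 0.64 ± 0.09 (adjusted p = 0.00842). In that fit Csrnp1 had 0.51 ± 0.12 and Homer1 -0.26 ± 0.06 (adjusted p = 0.431 and 0.452), and Fos 0.31 ± 0.18 and Arc 0.25 ± 0.14.

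Whether the diets differed by another amount in males and females was tested as an interaction, and 0 of the 38 passed, as did 0 of all genes (0.0%). DESeq2 also called 0 of the 38. Without adjustment 2 of the 38 had a p under 0.05 in edgeR, against 1.9% of all genes. For Csrnp1 the log2 fold change of FD over CD mice was -0.37 in males alone and 0.03 in females alone. Its interaction, females minus males, was 0.41 (unadjusted p = 0.0255, adjusted p = 1.0 in edgeR). Both FD males lay below all CD males, and FD females were at the level of CD females. For Egr3 the log2 fold change was -0.29 in males alone and 0.12 in females alone. Its interaction was 0.43 (unadjusted p = 0.0272, adjusted p = 1.0 in edgeR), with FD male 2, at 17.5 CPM, below all other mice.

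The genes upstream of the immediate early genes and those that follow them were set beside the same backgrounds, 0.068% of all genes called between the diets and 6.11% between the sexes. Of 32 genes upstream, which encode the NMDA receptor and calcium channel subunits, the calmodulin and ERK kinases and the CREB, SRF and MEF2 factors with their partners, 0 were called between FD and CD mice and 17 had values above 0, with a median log2 fold change of 0.002. Of 26 later activity response genes, such as Bdnf and Vgf, 0 were called and 12 had values above 0 (median -0.02). Among all genes tested, 48.2% had values above 0 between the diets (median -0.004). Between the sexes, 4 of the 32 upstream genes were called, all lower in females, against 3.07% of all genes lower: the kinases Camk4 (-0.21 ± 0.05, adjusted p = 0.0631) and Rps6ka3 (-0.23 ± 0.07, adjusted p = 0.0951), the calcium channel Cacna1d (-0.32 ± 0.08, adjusted p = 0.0641) and the NMDA receptor subunit Grin2a (-0.55 ± 0.17, adjusted p = 0.0951). Of the 26 later genes 3 were called, with Npy, a neuropeptide of interneurons, higher in females (0.48 ± 0.09, adjusted p = 0.0342) and Pcsk1 (-0.31 ± 0.09, adjusted p = 0.0808) and Cpeb1 (-0.17 ± 0.05, adjusted p = 0.0994) lower. The summed level of the 32 upstream genes and that of the 26 later genes had r of -0.34 and -0.20 with Fos. The sum of the later genes lay between 3104 and 3281 CPM in all 11.

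The lists of markers of the cells that the tissue could hold had r between -0.41 and 0.48 with Fos. The summed level of 10 hippocampal neuron markers had r = 0.23 with Fos, of 10 CA field markers 0.48, of 8 dentate granule markers -0.41, of 12 endothelial and mural markers 0.05, of 10 microglia markers 0.39, of 10 choroid plexus markers 0.36, of 10 striatum and thalamus markers -0.28 and of 10 heat shock genes -0.14, as descriptions over the same 11 mice. Such a sum follows its most abundant genes. In CD mice Rora had a mean of 49.6 CPM, where the striatum and thalamus sum lay between 123 and 143 CPM. No gene of these lists was at 0 in all mice. None of these lists held a gene called between the diets. FD values were higher for 10 of 10 striatum and thalamus markers (median log2 fold change 0.11), 11 of 12 endothelial and mural markers (0.12) and 7 of 8 dentate granule markers (0.05). They were lower for 8 of 10 neuron (-0.06), 8 of 10 CA field (-0.04), 8 of 10 choroid plexus (-0.07) and 7 of 10 microglia markers (-0.03). Of all genes tested, 51.8% were lower. In the choroid plexus list, Ttr (-1.19 ± 0.47) and Kcne2 (-1.64 ± 0.76) had an unadjusted p under 0.05, each with an adjusted p of 1.0 in edgeR. Kcne2 was near the floor, with a mean of 0.247 CPM in CD and 0.0527 CPM in FD mice. In these libraries 3 counts corresponded to 0.0675 to 0.256 CPM. Between the sexes, the complement genes C1qa (0.27 ± 0.07, adjusted p = 0.0793), C1qb (0.28 ± 0.06, adjusted p = 0.0621) and C1qc (0.31 ± 0.08, adjusted p = 0.0665) of the 10 microglia markers were called higher in females. So was Nrgn (0.43 ± 0.09, adjusted p = 0.0570), a postsynaptic calmodulin-binding protein, of the 10 neuron markers. Of all genes 3.03% were called higher in females. None of the other 6 lists held a call. Among all genes tested, 49.1% had values below 0 in females and 50.9% above 0. Of the 12 endothelial and mural markers 10 had values below 0 in females, 4 with an unadjusted p under 0.05. Of the 10 CA field markers 8 had values above 0, 2 with such a p. Such a p was also found for 4 of the 10 neuron markers and 4 of the 10 microglia markers, and for 20.27% of all genes. The part of these markers in the diet and sex differences of the immediate early genes was not tested.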

How the data were processed

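RNA of whole hippocampus was sequenced from 11 mice. The authors aligned trimmed reads to mm10 with STAR and counted unique alignments per gene with featureCounts, and they deposited whole-number counts per gene and mouse, not normalized. The annotation release and the strand setting are not given in the sources used here. The summary lines of each file (alignments outside genes, 7.01 to 11.03% per mouse) were kept out of library sizes. Gene IDs were named from GENCODE M21 (95.13% of 38293 matched), and promoters were taken from RefSeq.

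Genes with at least 10 counts in all were normalized by TMM and tested with edgeR 4.0.16 (quasi-likelihood, R 4.3.3) for FD against CD, for sex with diet as covariate, and for their interaction, with Benjamini-Hochberg adjustment over all genes and a threshold of 0.1. DESeq2 1.42.0 was an alternative, and others varied the filter, scaling, covariates and mice. Correlations with Fos used log2 CPM and 100000 permutations (numpy 2.4.6). Fits were tested on simulated data. Depth limits the precision of genes of a few CPM.

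Same-sex mice of the same number were treated as pairs, although the labels do not say that the number links them. The choice was made because their deviations from the diet means correlated in all 5 pairs (r from 0.31 to 0.54). Same-sex mice of different number had r from -0.06 to 0.53, so this correlation does not set the pairs apart from other mice of the same sex. With sex means also removed, r was 0.0051 to 0.39 for pairs and -0.40 to 0.22 for different numbers. Removing the sex means makes the deviations of the 2 FD males exact opposites. A positive r with 1 of them therefore gives an equal negative r with the other. Part of this contrast is built in, and it cannot show whether the number links mice. CD male 3 had no partner.

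The members and lists were chosen with earlier results of these data known. Values per mouse were given for Fos, Arc, Egr1, Npas4 and Junb, for the 8 genes with the smallest unadjusted p under 0.05 in each test, and for the 5 with the largest SD. Named besides were the 10 other genes most correlated with Fos and list genes with an unadjusted p under 0.05 between the diets, and, chosen after their values were seen, list genes called between the sexes. Some genes that this rule names are not reported here.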

Additional observations from a re-analysis of the deposited data

Results flagged for a closer look

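Of 26 sets of values checked for a mouse far from the rest of its group (13 genes, in CD and in FD mice), 2 were found, and chance gives about 1 in 20. The Fos level of CD female 1 was 23.9 CPM, where the nearest other CD mouse had 17.4 CPM, a gap of 0.663 of the range of the group. The Egr2 level of the same mouse was 7.57 CPM, where the nearest had 4.34 CPM (0.777 of the range).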

How the results depend on the processing

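Between the diets, where 14 genes were called, 1 was called with at least 10 counts in each mouse, 22 with the share of alignments outside genes as covariate, 23 with the replicate block, 2 in males alone, 1 in females alone and 3 to 12 with each mouse left out. The replicate block called 1 of the 38 genes (Arc), also without the pair of females 1 or of females 2 (1 each), and changed no other call. The genes with a positive FD over CD value were 5 in males alone and 6 to 17 with each mouse left out. Between the sexes, DESeq2 called 2043 genes, no filter 2645, the share as covariate 9, and leaving out each mouse 18 to 3244. Of the 38 genes, 19 were called with no filter, 2 with the share (both higher in females) and 3 to 16 with each mouse left out (2 to 15 higher in females). The median r over pairs was 0.0913 without the 3 mice farthest in Fos. The sign of the diet value turned for Egr3 in females alone (0.12), Npas4 in males alone (0.0448; leave-one-out -0.2409 to 0.0402), Ier2 with sex as covariate (-0.0353), with the block (-0.0071) and in males alone (-0.13; leave-one-out -0.0739 to 0.2399), Btg2 (leave-one-out -0.18 to 0.0045) and Csrnp1 with the share (0.0282) and in females alone (0.0293; leave-one-out -0.14 to 0.10). That of the sex value turned for Egr2 with the share (-0.20; leave-one-out -0.0713 to 0.3188) and Egr3 (leave-one-out -0.1266 to 0.0419). The cause was not tested. The fits with the share, without 3 mice and with single pairs left out were chosen after seeing the data.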
